A study of Mus musculus with 2 samples.

Results

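Selenoprotein genes were examined in ATDC5 cells, a mouse line that forms cartilage-like nodules in culture. The 10 genes were Gpx1, Gpx3, Gpx4, Txnrd1, Txnrd2, Dio2, Dio3, Selenop, Selenom and Selenow, out of 20657 genes with a named probe on the array. A probe was assigned to one of them when the array design gave it a RefSeq transcript of that gene, and each of the 10 had 1 probe, read at 1 spot. Selenop, Selenom and Selenow stand under their current symbols and were formerly Sepp1, Selm and Sepw1.

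The A-CEBP line and the GFP line were both stable ATDC5 lines with a doxycycline-inducible transgene. A-CEBP acts as a dominant negative, since it dimerises with factors of the C/EBP family in a form that cannot bind DNA, and GFP is the fluorescent control protein. Both lines were given 2 µg/mL doxycycline for 2 days and were then differentiated with ITS for 3 weeks. The labels do not say whether each line was a single clone or a pool, nor whether doxycycline was kept on during differentiation. Each group held 1 sample on 1 array, so no difference had a replicate check and no p-value between the groups could be computed.

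Selenoproteins carry selenocysteine, an amino acid that the ribosome inserts at a UGA codon when the mRNA holds a hairpin called SECIS after the coding sequence. Most are enzymes of redox chemistry, known for the removal of peroxides and for the activation or inactivation of thyroid hormone, and shortage of selenium has been associated with Kashin-Beck disease, a disorder of growth plate and joint cartilage. ITS is a supplement of insulin, transferrin and selenite, so both cultures had a source of selenium. Selenium shortage is known to lower some of these mRNAs, such as Gpx1, Selenow and Selenoh, more than others, such as Gpx4. No culture without selenite was analysed here.

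The windows upstream of the start sites were searched for a C/EBP motif, since A-CEBP acts on C/EBP factors, and for the antioxidant response element, which is read by the stress factor NRF2. The C/EBP letters were TTGCNNAA and those of the response element TGACNNNGC, each on both strands, in the 250 bases before every annotated start. All 10 genes had an entry in RefSeq promoters of build GRCm38.p6, with 17 windows in all, several of which overlap where a gene has several starts. Of 32817 windows of all genes, 9.57% held the C/EBP letters and 10.2% the response element letters. Among the members' windows each motif was found in 1 of 17, the C/EBP letters before Dio2 and the response element letters before the second start of Txnrd1. A single match among 17 windows was close to the share in all genes. The 2 windows with a match are printed with it in capitals, together with those of Selenom and Gpx3, the measured members with the largest difference upward and the largest downward outside the dimmest spots, which held neither motif. A match is a description of letters and shows no binding.

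Dio2, chr12:90739039-90739288, minus strand, C/EBP letters on the reverse strand from -82 to -75: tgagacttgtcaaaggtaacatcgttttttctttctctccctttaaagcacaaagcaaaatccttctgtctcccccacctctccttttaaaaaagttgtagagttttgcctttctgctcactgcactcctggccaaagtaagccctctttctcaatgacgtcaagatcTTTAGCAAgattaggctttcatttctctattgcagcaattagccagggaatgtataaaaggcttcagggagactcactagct
Txnrd1, second start, chr10:82858956-82859205, plus strand, response element letters on the reverse strand from -92 to -84: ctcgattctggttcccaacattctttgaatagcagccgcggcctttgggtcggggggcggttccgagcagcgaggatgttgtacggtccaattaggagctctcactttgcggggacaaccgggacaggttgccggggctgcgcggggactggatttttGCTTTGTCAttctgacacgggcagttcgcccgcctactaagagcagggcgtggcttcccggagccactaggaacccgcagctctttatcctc
Selenom, chr11:3514434-3514683, plus strand: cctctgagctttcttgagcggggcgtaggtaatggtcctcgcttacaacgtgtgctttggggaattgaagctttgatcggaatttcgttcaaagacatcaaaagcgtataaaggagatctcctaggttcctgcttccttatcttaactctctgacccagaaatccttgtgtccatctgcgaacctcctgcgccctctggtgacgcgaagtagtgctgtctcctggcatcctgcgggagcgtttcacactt
Gpx3, chr11:54902604-54902853, plus strand: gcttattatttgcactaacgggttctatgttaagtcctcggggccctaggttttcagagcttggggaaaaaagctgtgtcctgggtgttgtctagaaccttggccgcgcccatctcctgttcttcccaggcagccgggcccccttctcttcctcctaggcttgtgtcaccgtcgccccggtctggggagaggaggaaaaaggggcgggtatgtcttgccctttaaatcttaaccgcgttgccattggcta

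The scanner software marked 58.0% of 59305 non-control spots as well above background on the A-CEBP array and 54.6% on the GFP array, and none as saturated. Log2 levels are relative to the 75th percentile of each array's signal, 906 intensity units for A-CEBP and 872 for GFP. Both arrays measured 13860 named genes, of which 410 (2.96%) differed by 2-fold or more, and the median log2 difference, A-CEBP minus GFP, was 0.05. Of 12 fixed chondrocyte markers 11 were measured on both arrays. In the A-CEBP sample 4 were past 2-fold upward (Acan, Hapln1, Cnmd and Snorc) and 0 past 2-fold downward. By sign 10 stood above and 1 below 0, Comp at -0.04. Their summed signal was 515775 units in A-CEBP and 337688 in GFP. Most of it came from Col2a1, with 364462 and 260748 units and a log2 difference of 0.43. Matn3 was the marker not well above background. Of 11 leukocyte and macrophage markers with a probe, 6 were measured on both arrays (Itgam, Csf1r, Cd14, Cd3e, Lyz2 and Laptm5). None was 2-fold apart, with 3 above and 3 below 0. Their summed signal of 25852 units in A-CEBP and 22062 in GFP came mostly from 1 Itgam probe, with 22989 and 18864 units. The other Itgam probes read 53.8 and 49.6 units in A-CEBP and 76.9 and 43.8 in GFP. The split of signs was counted on the brightest probe of each gene. Csf1r stood at -0.14 there and at 0.36 on another probe well above background on both arrays. Itgam likewise stood at 0.23 and at -0.57. Cd14 and Lyz2 were the farthest from 0, at -0.84 and -0.83, and Laptm5 was the highest at 0.38. Ptprc, Adgre1, Cd52, Tyrobp and Cd79a were not well above background on either array. The transgenes had no named probe, so their expression was not checked.

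None of the 9 selenoprotein members measured on both arrays was 2-fold apart, in either direction, and the background share of such genes was 2.96%. With so low a background a count of 0 among 9 does not set the members apart from other genes. All 9 lay within 1.27-fold, 4 above and 5 below 0, and their median log2 difference was -0.01 beside 0.05 for all named genes. At 1.5-fold, a size reached by 8.51% of all named genes, the count of members was 0 as well. Dio2 was not well above background in either sample.

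**Figure D1:**
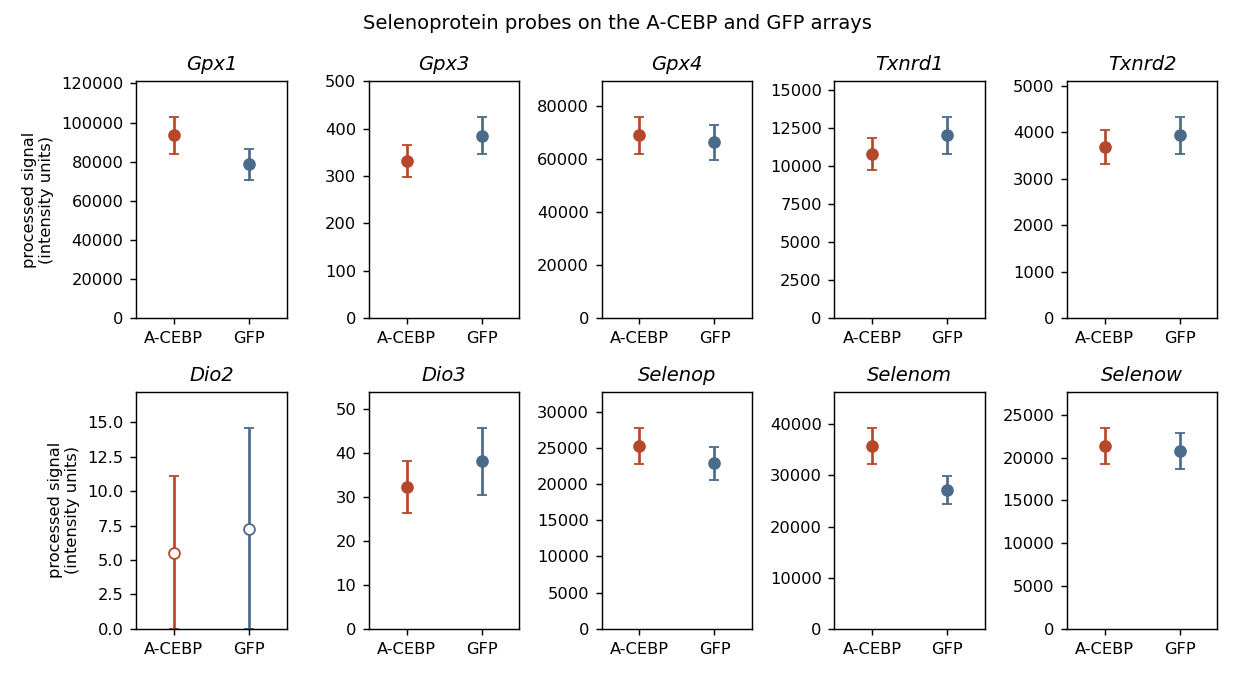
Processed signal of the probe of each member, in intensity units not scaled between arrays, on the A-CEBP array (red, left) and the GFP array (blue, right). Bars are the scanner software's error of 1 spot, open points are not well above background, each panel has its own axis from 0, and signals of different probes cannot be set against each other. The error bars overlap in every panel but that of Selenom, where the signal was 35714 units in A-CEBP and 27128 in GFP.

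The error of a single spot was taken from the scanner software, which rates bright spots by a fixed share of their signal. Combined over both arrays it came to 0.20 on the log2 scale for Gpx1, Gpx4, Txnrd1, Txnrd2, Selenop, Selenom and Selenow, 0.21 for Gpx3 and 0.39 for Dio3. For other probes the log2 differences had an SD between replicate spots of 0.06 for 100 probes with a mean level over 2, 0.09 for 141 probes between -2 and 2, and 0.21 for 50 probes under -2. No member had replicate spots of its own. Of the 9 members, 3 differed by more than 1 scanner error, namely Selenom, Gpx3 and Txnrd1, and none by more than 2, where the shares of all named genes were 36.2% and 13.5%. These errors cover the measurement and not the spread between cultures, and the number of arrays limits the precision.

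The glutathione peroxidases Gpx1, Gpx3 and Gpx4 reduce peroxides with glutathione. Gpx1, the abundant cytosolic enzyme that removes hydrogen peroxide, had a signal of 93397 units in A-CEBP and 78732 in GFP, or log2 levels of 6.69 and 6.50. The log2 difference was 0.19, less than its scanner error, and 41.0% of all named genes were at least as far from 0. Gpx4, which reduces lipid peroxides within membranes and is known as the guard against ferroptosis, gave 68835 units in A-CEBP and 66212 in GFP. Its log2 difference of 0.002 was the smallest of the members, and 99.3% of named genes differed by at least that much. Gpx3, the secreted enzyme of plasma and extracellular fluid, gave 331 units in A-CEBP and 385 in GFP. It was 1.21-fold lower in A-CEBP, a log2 difference of -0.27 with a scanner error of 0.21, and 27.9% of named genes were at least as far apart. Of the 3 peroxidases, Gpx1 lay above and Gpx3 below 0 under every scaling tried, and Gpx4 came to 0.22 with spike-in scaling.

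The thioredoxin reductases use NADPH to keep thioredoxin reduced, Txnrd1 in the cytosol and Txnrd2 in mitochondria. The Txnrd1 probe gave 10770 units in A-CEBP and 11989 in GFP, a log2 difference of -0.21 with a scanner error of 0.20. The Txnrd2 probe gave 3688 units in A-CEBP and 3928 in GFP, a log2 difference of -0.15, less than its scanner error. Both values were below 0 under the reported scaling, and both turned slightly positive, to 0.01 and 0.08, when the arrays were scaled on spike-in spots. The Txnrd1 start with the response element letters printed above is 1 of 3 annotated starts, and which of them the probe reads was not determined.

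The deiodinases are the members closest to background. Dio2 turns the prohormone T4 into active T3, and Dio3 inactivates both hormones. Dio2 read 5.54 units in A-CEBP and 7.29 in GFP, with scanner errors as large as the readings, and neither was well above background, so no fold is given. Dio3 read 32.2 units in A-CEBP and 38.1 in GFP, and the dimmest spots called well above background on these arrays read 24.8 and 32.9. Its log2 difference of -0.30 was the lowest of the members, but the scanner error of 0.39 was larger than it. With normexp background correction the value was -0.14. The member whose upstream window held the C/EBP letters, Dio2, was therefore the one for which no difference could be measured.

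Selenop, Selenom and Selenow are named for their selenium and not for an enzyme class. Selenop, a secreted protein with several selenocysteines that carries selenium between tissues, gave 25223 units in A-CEBP and 22842 in GFP. Its log2 difference was 0.09, less than its scanner error. Selenow, a small cytosolic protein with a thioredoxin-like fold, gave 21341 units in A-CEBP and 20758 in GFP, a log2 difference of -0.01. Selenom, a thioredoxin-like protein of the endoplasmic reticulum, gave 35714 units in A-CEBP and 27128 in GFP. It was 1.27-fold higher in A-CEBP, a log2 difference of 0.34 with a scanner error of 0.20, and had the largest difference of the members. Even so, 20.3% of all named genes were at least as far from 0.

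**Figure D2:**
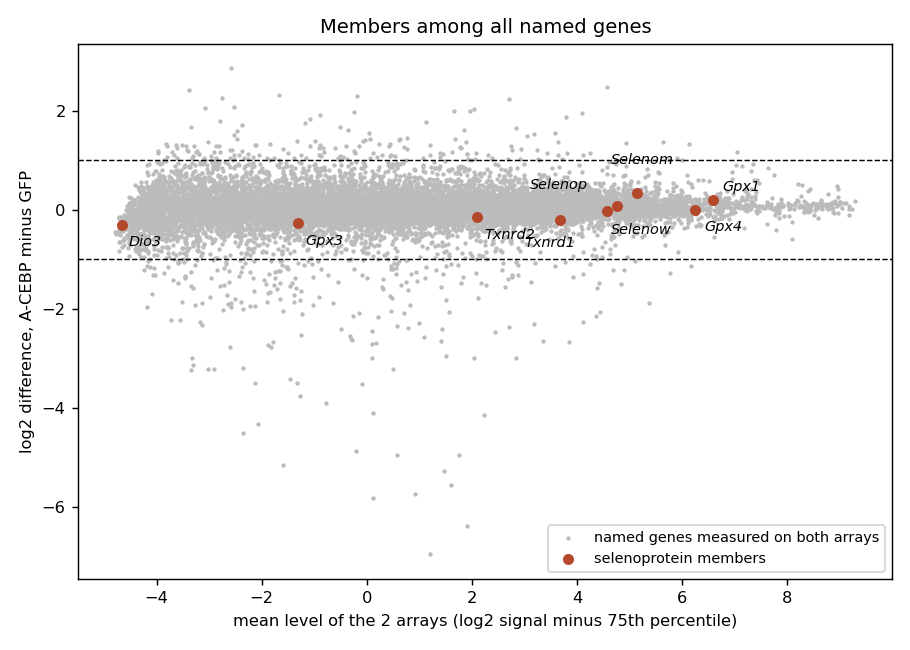
Each grey point is 1 of the 13860 named genes measured on both arrays, by its mean log2 level (horizontal) and its log2 difference, A-CEBP minus GFP (vertical). The 9 measured members are in red, and dashed lines mark 2-fold. All 9 lie in the dense band between -0.30 and 0.34, and Dio3 sits at its dim end.

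Spike-in scaling raised the median of all named genes by 0.22 and every member with it, so that 7 of the 9 members stood above 0 and 2 below. Gpx1, Selenop and Selenom stayed above 0 and Gpx3 and Dio3 below 0 under the reported scaling and all 11 alternatives. Gpx4 and Selenow changed sign under 4 alternatives each. Under every one of these settings 0 members were 2-fold apart.

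**Figure D3:**
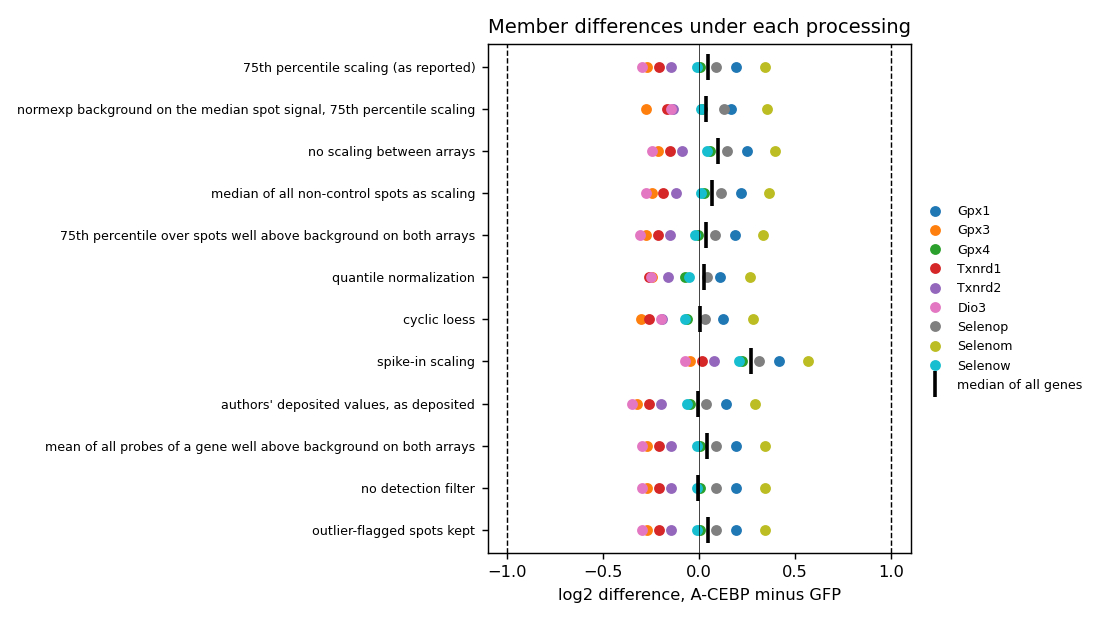
Log2 difference, A-CEBP minus GFP, of each measured member (coloured points) under the reported processing and 11 alternatives (rows), with the median of all named genes as a black bar. The points move sideways with the bar under spike-in scaling, and none reaches the dashed lines at 2-fold.

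The mouse genome encodes 14 further selenoproteins, and a list of them was read in the same way. Of these, 13 were measured on both arrays and none was 2-fold apart (background 2.96%). Of the 13, 11 stood above and 2 below 0, and 9 stood above the median of all named genes, 0.05. Their own median was 0.10. Gpx2, a peroxidase known from gut epithelium, had 88.9 units in A-CEBP and 63.1 in GFP, a log2 difference of 0.44 with the signal close to background. Msrb1, which repairs oxidised methionine, had 27042 units in A-CEBP and 19499 in GFP. Its log2 difference of 0.42 was the only one in the family beyond 2 scanner errors. Selenon, a protein of the endoplasmic reticulum known from muscle disease, differed by 0.31, and by 0.17 on its other probe. These 3 were above 0 under all 11 alternatives.

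Other members of the list were flat or dim. Selenoh, a nuclear protein and another mRNA known to respond to selenium, differed by 0.06. Selenoi, an enzyme of phospholipid synthesis, was printed at 10 spots, and these gave a mean difference of 0.10 with an SD of 0.05 and a range from 0.04 to 0.21. Dio1, the deiodinase known from liver, was well above background on the A-CEBP array only, on 1 of its 3 probes. That probe read 40.6 units in A-CEBP and 35.6 in GFP, a bound of 1.1-fold higher that takes no account of error. Its log2 difference of 0.14 was less than the scanner error of 0.46. The other Dio1 probes, not well above background on either array, differed by 0.58 and -0.65, so no direction is given. Over the 24 selenoprotein genes together, 22 were measured on both arrays, 15 above and 7 below 0, and 12 above the median of all named genes, with a median of 0.07. Selenoh, Selenoi and Dio1 were picked for mention after their values were seen.

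**Figure D4:**
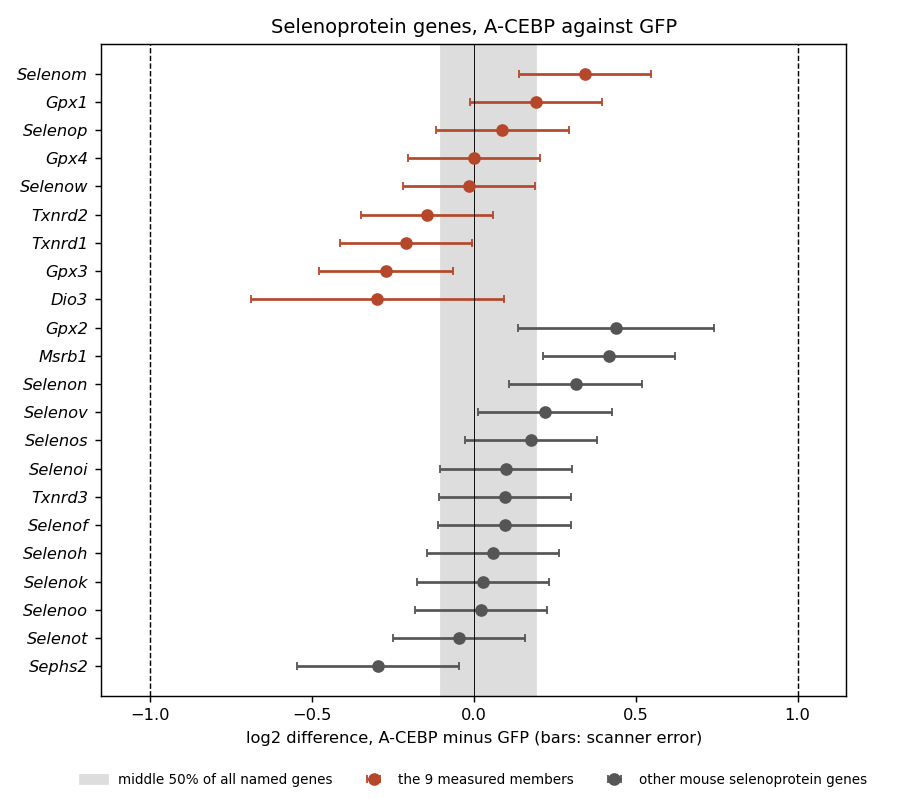
Log2 difference, A-CEBP minus GFP, of the 9 measured members (red) and 13 other mouse selenoprotein genes (grey), with the scanner error as bars. The shaded band holds the middle 50% of all named genes, from -0.10 to 0.19, and the dashed lines mark 2-fold. The highest value is 0.44 for Gpx2 and the lowest -0.30 for Dio3.

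A list of 10 genes of the machinery that makes and inserts selenocysteine was measured in full. Of 10 genes of this list none was 2-fold apart (background 2.96%), with 5 above and 5 below 0 and a median of -0.003 beside 0.05 for all named genes. Sepsecs, the enzyme that forms selenocysteine on its tRNA, had 270 units in A-CEBP and 339 in GFP, a log2 difference of -0.38 with a scanner error of 0.21. Sephs2, which makes the selenium donor and is itself a selenoprotein, read 83.1 units in A-CEBP and 98.3 in GFP, close to background, and differed by -0.30 with a scanner error of 0.25. Sephs1, its relative without selenocysteine, differed by 0.30. The other probe of Sephs1 read 65.7 units in A-CEBP and 47.4 in GFP, also close to background, and differed by 0.42 with a scanner error of 0.38. Of the 2 uptake receptors for Selenop, Lrp8 read 118 units in A-CEBP and 123 in GFP. It differed by -0.12 with a scanner error of 0.23, or by 0.10 with spike-in scaling. The other probe of Lrp8 read 51 units in A-CEBP and 60 in GFP and differed by -0.29 with a scanner error of 0.29. Lrp2 was well above background on the A-CEBP array only, with no fold past 1.

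Relatives that carry cysteine in place of selenocysteine, and the partner systems, gave the remaining values. Of 7 genes listed as cysteine homologues 5 were measured on both arrays, none 2-fold apart (background 2.96%). Their median was 0.13 beside 0.05 for all named genes. Msra, at -0.04, was kept on this list though it does not belong to the Msrb family, and is named for that alone. Gpx7, a peroxidase of the endoplasmic reticulum, was the farthest at 0.38, followed by the methionine sulfoxide reductases Msrb3 at 0.25 and Msrb2 at 0.13. Of 19 genes of the thioredoxin and glutathione system none was 2-fold apart, beside the same background, 6 stood above and 13 below 0, and the median was -0.05 beside 0.05 for all named genes. Glrx, the cytosolic glutaredoxin, had 3796 units in A-CEBP and 6258 in GFP and was 1.71-fold lower in A-CEBP. Its log2 difference of -0.78 exceeded 2 scanner errors and stayed below 0 under all 11 alternatives, from -0.83 to -0.55. Prdx6, a peroxiredoxin, differed by -0.29, and by -0.28 and -0.36 on its other measured probes. Txnip, which binds and inhibits thioredoxin, differed by 0.26, and by 0.30 on its other probe.

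**Figure D5:**
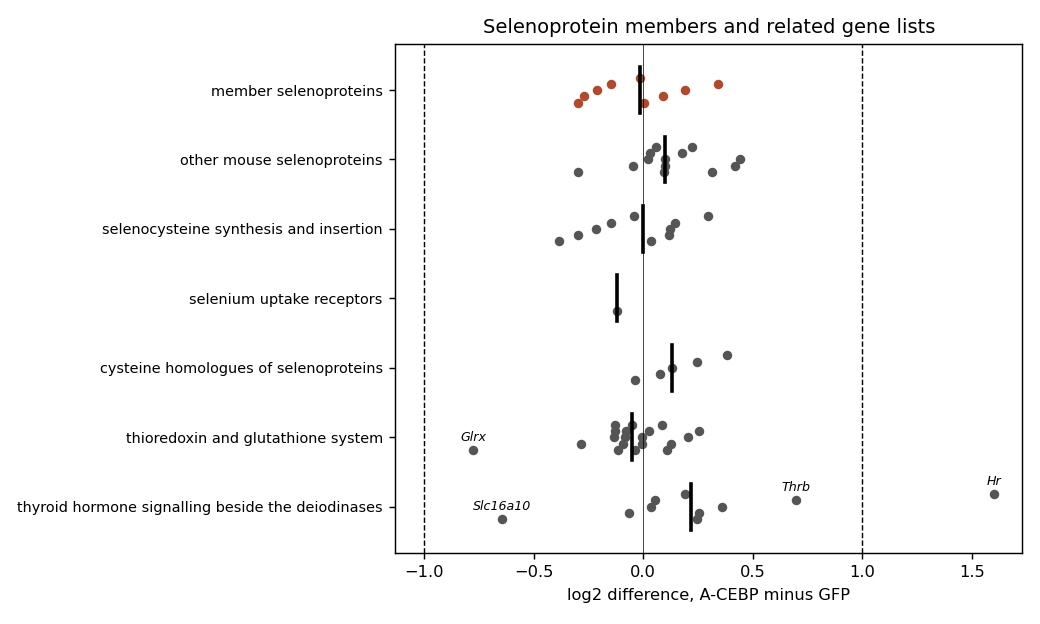
Log2 difference, A-CEBP minus GFP, of every gene measured on both arrays (points) in the member list (red) and 6 related lists (grey), with the median of each list as a black bar and 2-fold as dashed lines. The selenium lists stay inside the lines, and genes beyond 0.6 are named, with Hr alone past 2-fold.

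Genes of thyroid hormone signalling beside the deiodinases ranged from -0.65 to 1.60. Of 10 measured on both arrays, 1 was at least 2-fold higher (background 1.26% for higher) and none lower by that size (background 1.7%). Of the 10, 8 stood above and 2 below 0, and 7 stood above the median of all named genes, 0.05. Their own median was 0.22, and it ranged from 0.10 to 0.44 over the settings tried. These counts used the brightest probe of each gene. Med1 was counted at 0.36, while its other probes were below 0, at -0.03, -0.03 and -0.22. Ncor1 was counted at 0.05 and differed by 0.11 and -0.32 on its other probes. Hr, a corepressor that binds thyroid hormone and vitamin D receptors and is itself known as a target of thyroid hormone in rodent brain, had 283 units in A-CEBP and 89.9 in GFP. It was 3.03-fold higher in A-CEBP on its single probe, and only 0.952% of named genes were at least as far from 0. With normexp background correction its log2 difference of 1.60 came to 1.00, just under the 2-fold rule. Thrb, which encodes the beta receptor for thyroid hormone, differed by 0.70, and by 0.80 on its other probe. The transporter gene Slc16a10 stood in the opposite direction, at -0.65, with -0.74 on its other probe. The signs of these 3 genes held under all 11 alternatives. Klf9, a zinc finger gene that thyroid hormone is known to induce, differed by -0.07. Thrb, Slc16a10 and Klf9 were named after their values were seen, and the part that the higher chondrocyte markers had in these values was not tested.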

How the data were processed

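From each of 2 samples, 0.1 µg total RNA was turned into Cy3-labelled cRNA for a 1-colour Agilent array, per the labels' protocols. In the scanner files that the authors deposited, values are linear intensity per spot, already background-subtracted and detrended within the array per the file headers. The submitters' processing notes name Agilent Feature Extraction (10.10.1.1). The arrays lay on 1 slide and were read in 1 scan, per the file headers. The series table deposited by the authors repeats this intensity times 1.15 for A-CEBP and 1.24 for GFP (column medians of 67.4 and 70.9 units), uncentred, and the basis of these constants is not stated.

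Here, log2 of the processed signal minus each array's 75th percentile was taken, control spots and 293 outlier-marked spots were dropped, and repeated spots were averaged per probe. A probe was well above background when over 50% of its spots were so marked. A gene was read on its brightest probe well above background on both arrays. Of 55671 probes, 27229 (48.9%) matched 1 gene of RefSeq, assembly GRCm38.p6, used for names. A gene seen on 1 array got a bound, the bright level against the higher of the dim reading and the lowest level well above background there. Probes can also read close relatives or pseudogenes, and which isoforms they read was not determined.

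With 1 array per group no test was run, and the size rule was 2-fold. All members are named. Other lists are named by members past 2-fold, otherwise by the 3 farthest from 0, and exceptions are marked. The members and lists were chosen with earlier results of these data known. A gene of a related list is not reported here. Markers of other cell types were counted as at least 2-fold higher and lower among genes measured on both arrays, where the shares of all named genes were 1.26% higher and 1.7% lower: leukocyte and macrophage 0 and 0 of 6, fibroblast and tendon 0 and 2 of 9, adipocyte 0 and 1 of 4, muscle 3 and 0 of 5, and endothelial 0 and 0 of 3. The calculation of folds was tested on simulated data made from the GFP array. These had the same noise at every level and the GFP detection marks for both samples. Scaling between arrays, detection and the wider spread of dim spots were therefore not tested. Python 3.11.15, pandas 2.3.3, numpy 2.4.6, R 4.3.3 and limma 3.58.1 were used.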

Additional observations from a re-analysis of the deposited data

How the results depend on the processing

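No paired analysis was possible because each group held 1 sample with no replicate number in the labels, and no replicate could be left out. The count of members 2-fold apart was 0 under all 11 alternatives and at 1.5-fold. The members' median of -0.01 came to 0.21 with spike-in scaling, which shifts every gene alike, and elsewhere ranged from -0.08 to 0.04. Relative to the median of all named genes it stood at -0.06 with and without spike-in scaling. Of the recomputed values, 423 stayed within tolerance, and 42 of the 51 larger moves came with spike-in scaling. The tolerance was the replicate-spot SD of 0.11 for log2 differences, while the count of members 2-fold apart had to stay the same. The count of all named genes 2-fold apart was 410, with 42.4% of them higher in A-CEBP. It was 271 with normexp background and 1486 without the detection filter, and with spike-in scaling 66.9% of 523 were higher. The normexp alternative used the median spot signal, chosen after seeing the files, because they hold no mean spot signal, so the planned form was not run. Depth of signal limits Dio2, Dio3, Dio1, Gpx2, Sephs2, Lrp8 and Lrp2, which read near background, as did Hr in GFP.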

Other observations

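Probes of a gene did not always point the same way. The 3 probes of Glrx2, a mitochondrial glutaredoxin, differed by -0.09, 0.14 and 0.28 on the log2 scale, with signals of 505246, 3633 and 175 units in A-CEBP and 519585, 3169 and 139 units in GFP. The brightest, used above, was the only one below 0. Med1, a coactivator of nuclear receptors, differed by 0.36 on its brightest probe, and by -0.03, -0.03 and -0.22 on the others. Both genes were picked after their values were seen.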
